A study of Mus musculus with 12 samples.

Results

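Guanylate-binding proteins (GBPs) are large GTPases that cells make in response to interferons. Interferons act through receptors and their kinases on 2 kinds of promoter sequence, gamma-activated sites (GAS) and interferon-stimulated response elements (ISRE), and both kinds drive Gbp genes. The proteins assemble on membranes of vacuoles that hold pathogens and assist the release of microbial material to inflammasomes; Gbp2, Gbp5 and Gbp2b (formerly Gbp1) end in a signal for attachment of a lipid. Gbp2b is known to differ between inbred mouse strains in its induction by interferon.

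The 8 genes described here are Gbp2, Gbp2b, Gbp3, Gbp4, Gbp5, Gbp6, Gbp7 and Gbp9, taken by symbol from 33641 genes, and all 8 were found in each of 12 samples. Gbp2b was selected on its TPM in WT-PLN and R14del-PLN samples, so that genotype difference is given as a description with no test, while the other 7, here called the relatives, were taken by family name. RNA was sequenced from left ventricle (LV) and right ventricle (RV) of mice aged 12 to 14 weeks, labelled C57BL/6J, with 3 samples in each of 4 groups (LV and RV of WT-PLN, LV and RV of R14del-PLN). All mice carried human phospholamban (PLN) coding sequence inserted into the mouse Pln gene: the controls carried the wild-type form, and the R14del-PLN group was heterozygous for the deletion of arginine 14 (labelled KO in the titles, although the gene was not removed). Both lines came from chimeras of 129/Sv-CP and C57Bl/6J origin bred to Sox2-Cre mice, in which the Sox2 promoter drives Cre in the early embryo, and the study describes the lines as hybrid. The strain of origin of chromosome segments was not analysed here, so a segment that differs between the groups and the PLN allele cannot be told apart.

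Values are in TPM, a measure of transcript abundance that corrects for transcript length and scales each library to the same sum. The depth of sequencing cannot be read from them, so the error from counting reads is unknown. Mitochondrially encoded genes took 37.3% to 54.5% of TPM, with the lowest share in LV R14del-PLN sample 3 and the highest in RV R14del-PLN sample 3. In replicate 1 of both WT-PLN groups, 4 Y-linked genes were at 0.0159 to 0.191 TPM, against 3.03 to 30.6 TPM in all other samples, although the study states that males were used. The third RV R14del-PLN sample carries another sequencing run number than all others. Pln was at 1559 to 1963 TPM, and TPM of the gene cannot show the deletion. The cardiomyocyte markers (Myh6, Tnnt2, Tnni3, Actc1, Ryr2, Myl2) summed to 28419 to 43109 TPM, and no T cell, natural killer cell or B cell marker reached a mean of 0.5 TPM. The study gives mice as its replicates, and no label says which LV and RV samples came from the same mouse. The LV and RV samples of a genotype may therefore not come from separate mice. In whole ventricle, fewer cells of a type and less RNA per cell cannot be told apart.

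The genes lie in clusters on chromosomes 3 and 5 of GRCm38 (GENCODE M21 annotation). On chromosome 3, all on the plus strand, the order is Gbp5 (chr3:142493978-142522344), Gbp7 (chr3:142530342-142550149), Gbp3 (chr3:142560026-142573209), Gbp2b (chr3:142594847-142619179, ENSMUSG00000040264.10) and Gbp2 (chr3:142620602-142638008), with 1422 bases between the end of Gbp2b and the start of Gbp2. On chromosome 5, all on the minus strand, lie Gbp9 (chr5:105077630-105139539), Gbp4 (chr5:105115767-105139586) and Gbp6 (chr5:105270702-105293698). Gbp2b has 1 annotated transcript of 11 exons with 1770 coding bases. Its coding sequence matched that of Gbp2, also 1770 bases, at 82.49% of aligned bases, and those of the other relatives at 64.28% to 71.49%.

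How well reads can be assigned to a member depends on this likeness. Of the 50-base windows in annotated Gbp2b transcripts, 1.84% were also found in another gene, in each case Gbp2. For Gbp2 the share was 2.07%, for Gbp5 2.45%, for Gbp3 4.88% and for Gbp7 5.19%. The chromosome 5 genes were less distinct, at 9.56% for Gbp9, 12.79% for Gbp4 and 90.18% for Gbp6. For Gbp6, Gm43302 held all of these shared windows, and 70.25% of its windows were found in other Gbp genes. The coding sequence of Gbp6 is 98.37% identical to that of Gbp10. Gbp6 also overlaps the annotated Gm43302, and Gbp4 and Gbp9 overlap each other on the same strand. The levels of these 3 genes are therefore uncertain.

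The promoters of the chromosome 3 genes are shown because they hold, or lack, the letters of the interferon response motifs. They come from RefSeq on GRCm38.p6, which matched 5 of the 8 members; Gbp4, Gbp6 and Gbp9 had no entry. The 250 bases before the RefSeq start of Gbp2b (chr3:142594597-142594846), Gbp2 (chr3:142620413-142620662) and Gbp7 (chr3:142530086-142530335) are on the plus strand, 5′ to 3′, with matches in capitals to ISRE (GAAA, any 2 bases, GAAA) and GAS (TTCNNNGAA).
Gbp2b: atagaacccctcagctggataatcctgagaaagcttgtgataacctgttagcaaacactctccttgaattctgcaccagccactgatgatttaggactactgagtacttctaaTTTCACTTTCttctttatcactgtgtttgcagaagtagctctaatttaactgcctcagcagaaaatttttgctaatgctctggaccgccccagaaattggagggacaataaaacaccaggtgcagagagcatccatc
Gbp2: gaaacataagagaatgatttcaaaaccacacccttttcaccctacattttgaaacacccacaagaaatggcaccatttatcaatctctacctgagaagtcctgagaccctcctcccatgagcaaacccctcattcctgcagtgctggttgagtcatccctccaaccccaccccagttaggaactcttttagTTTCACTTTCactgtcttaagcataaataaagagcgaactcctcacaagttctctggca
Gbp7: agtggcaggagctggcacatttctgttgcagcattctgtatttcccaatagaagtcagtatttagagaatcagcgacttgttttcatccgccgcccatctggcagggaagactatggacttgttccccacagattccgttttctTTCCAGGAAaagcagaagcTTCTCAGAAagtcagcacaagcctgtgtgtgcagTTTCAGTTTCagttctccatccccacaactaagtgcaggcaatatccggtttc

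Both strands of the 300-base RefSeq windows were searched, and no GAS match overlapped an ISRE match. All 5 genes held an ISRE match, on the minus strand in each case; Gbp3 held 2 that overlapped each other. In Gbp2b and Gbp2 the match had the same letters, TTTCACTTTC on the strand printed, and began 137 bases before the RefSeq start of Gbp2b and 59 bases before that of Gbp2. The RefSeq and GENCODE starts are the same base for Gbp2b, whereas that of Gbp2 lies 61 bases inside the GENCODE gene, so that its match falls within the GENCODE gene. The RefSeq start of Gbp5 lies 2956 bases inside its GENCODE gene, so all its matches fall within that gene too. A second RefSeq window of Gbp3, with its start 330 bases inside the GENCODE gene, held no match. Gbp5 and Gbp7 each held 2 GAS matches as well, and the letters of GAS were not in the windows of Gbp2b, Gbp2 or Gbp3. Of 32544 RefSeq promoters of this length, 3.448% held ISRE, 8.327% held GAS and 0.455% held both. A match is a description of letters and not of binding.

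Gbp2b was nearly unrecorded in WT-PLN and recorded in every R14del-PLN sample. In LV of WT-PLN it was at 0.0119, 0 and 0 TPM, and in RV of WT-PLN at 0.0352, 0.0107 and 0 TPM. In LV of R14del-PLN it was at 2.66, 2.75 and 3.90 TPM, and in RV of R14del-PLN at 2.95, 3.68 and 2.52 TPM. All 6 R14del-PLN samples lay above all 6 WT-PLN samples, in both ventricles. The group means were 3.10 ± 0.692 TPM in LV and 3.05 ± 0.585 TPM in RV of R14del-PLN (SD, n = 3), against 0.00395 ± 0.00685 and 0.0153 ± 0.0181 TPM in WT-PLN.

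On the log2(TPM + 1) scale, on which low levels give small differences, Gbp2b was 2.02 higher in LV and 1.99 higher in RV of R14del-PLN. No fold is given against groups listed at or near 0. The choice of Gbp2b used these values, so they support nothing further. Leaving out both replicate 1 samples of WT-PLN gave 2.02 in LV and 2.00 in RV. In the R14del-PLN samples the levels of Gbp2b ranged over 1.55-fold, with sample 3 of LV highest and sample 3 of RV, the one from another sequencing run, lowest. These samples also had the lowest and the highest mitochondrially encoded share of TPM, 37.3% and 54.5%. The part of the run or of this share in the levels was not tested.

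**Figure D1:**
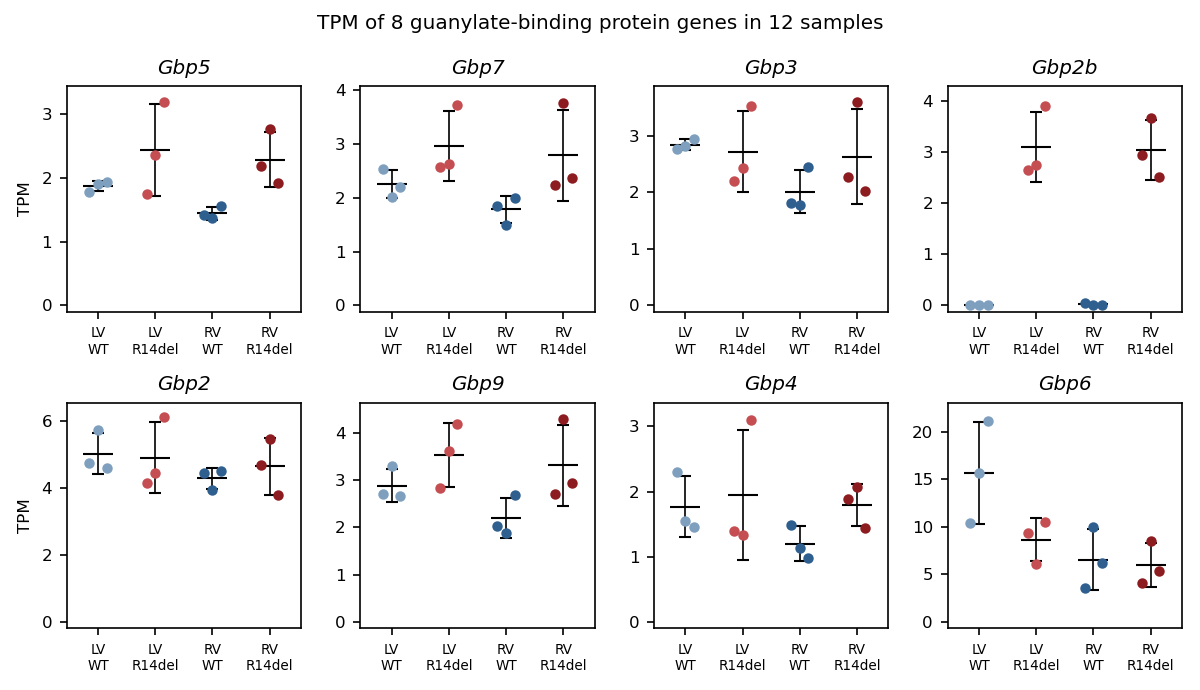
TPM (vertical axis, linear, from 0) of the 8 members in LV and RV of WT-PLN and R14del-PLN; points are the 3 samples of a group, the horizontal bar is the mean and the whiskers are 1 SD, cut at 0. Gbp2b is at 0 to 0.0352 TPM in the 6 WT-PLN samples and at 2.52 to 3.90 TPM in the 6 R14del-PLN samples, while the relatives are recorded in every sample.

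The relatives were present in all groups. Over the 12 samples the mean level was 9.22 TPM for Gbp6, 4.72 for Gbp2, 2.99 for Gbp9, 2.55 for Gbp3, 2.45 for Gbp7, 2.01 for Gbp5 and 1.68 for Gbp4, and the ranges over samples overlapped between each gene and the next in this order. In the R14del-PLN samples the median level of Gbp2b (2.85 TPM) lay between those of Gbp9 (3.28) and Gbp7 (2.59). Of the other Gbp genes in the files, Gbp10 was at 0.0767 to 1.055 TPM, Gbp8 at up to 0.116, Gbp11 at up to 0.0831 and the pseudogene Gbp2-ps at 0 in all samples; none of these reached a mean of 0.5 TPM over the 12 samples.

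In R14del-PLN the level of Gbp2b varied with that of Gbp2. The ratio of Gbp2b to Gbp2 was 0.642, 0.616 and 0.637 in LV and 0.628, 0.674 and 0.669 in RV. Its coefficient of variation over the 6 samples was 3.52%, while that of the Gbp2b level was 18.7% and that of the Gbp2 level 18.2%. The ratio to Gbp3 had a coefficient of variation of 8.71%, to Gbp5 9.46%, to Gbp7 11.2%, to Gbp9 12.2%, to Gbp4 16.3% and to Gbp6 32.7%. Of 12388 other tested genes above 0 in these samples, 19 (0.153%) gave a ratio with a lower coefficient of variation than Gbp2, and the median over these genes was 15.2%. This share is a description and no test, as Gbp2 had the steadiest ratio of the relatives compared. By deviations from the group means, Gbp5 (rank 231 of 12526 genes) was closer to Gbp2b than Gbp2 was (rank 356). In WT-PLN the ratio of Gbp2b to Gbp2 was at most 0.00794. The 2 genes share 1.84% of Gbp2b windows, and the part of shared reads in the ratio was not tested.

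Gbp2b made up 9.91% to 12.8% of the summed TPM of the 8 members in R14del-PLN and 0% to 0.213% in WT-PLN. The sum itself was 27.2, 32.9 and 36.9 TPM in LV of WT-PLN and 26.9, 25.7 and 38.3 TPM in LV of R14del-PLN. In RV it was 16.6, 21.5 and 20.4 TPM in WT-PLN and 23.0, 34.2 and 22.4 TPM in R14del-PLN. The LV ranges overlapped, and the RV ranges did not. Without Gbp2b the RV ranges overlapped as well, at 16.5 to 21.5 TPM in WT-PLN and 19.9 to 30.5 TPM in R14del-PLN. Gbp6, the level of which is uncertain, was the largest part of the sum in each LV sample of WT-PLN, at 38.1% to 57.2%.

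**Figure D2:**
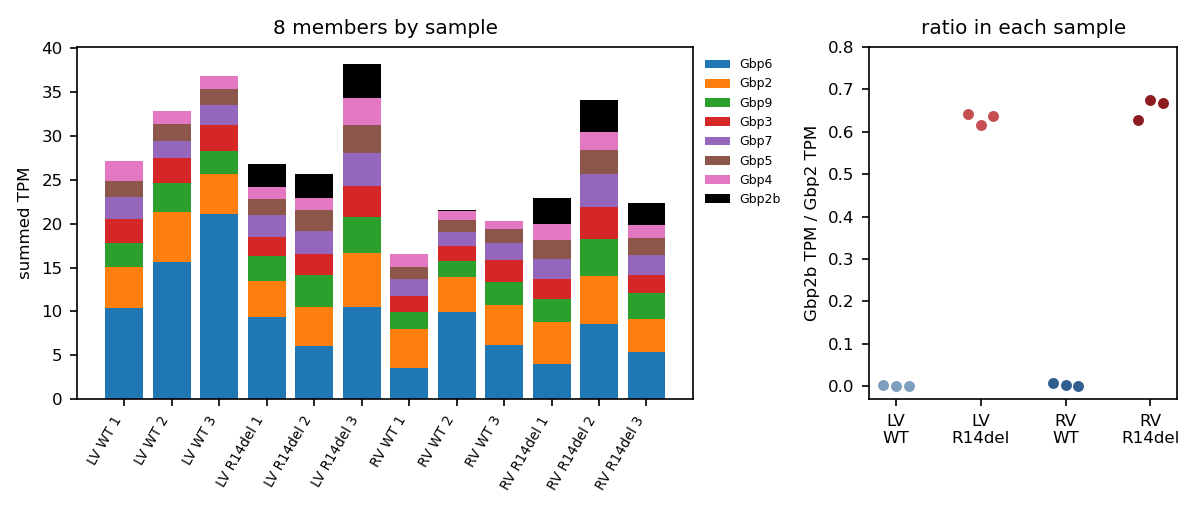
Left, summed TPM of the 8 members in each of the 12 samples, stacked by gene with Gbp2b in black; right, the ratio of Gbp2b TPM to Gbp2 TPM in each sample by group. The ratio is 0.616 to 0.674 in the 6 R14del-PLN samples and at most 0.00794 in the 6 WT-PLN samples.

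The first comparison asked whether the relatives differed between genotypes as Gbp2b did. None of the 7 passed the test in either ventricle (limma on log2(TPM + 1), with an adjusted p up to 0.05 and at least a 1.5-fold change on that scale required). Of all 12526 genes tested, 0.519% were called in LV and 0.271% in RV. At an unadjusted p under 0.05, without the fold, 1 of 7 relatives in LV and 3 of 7 in RV were counted, against 9.6% and 6.22% of all genes. The 1 in LV was Gbp6, with a difference of -0.77, and the 3 in RV were Gbp5, Gbp7 and Gbp9, with differences above 0. The median difference of the relatives was 0.05 in LV, where that of all genes was -0.09, and 0.35 in RV, where that of all genes was -0.0034. In LV this sign depended on sample 3 of R14del-PLN, without which the median was -0.18, and on sample 3 of WT-PLN, without which it was -0.030; in RV the median was 0.25 without sample 2 of R14del-PLN and 0.44 without sample 3.

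Gbp7, which lies in the same cluster and acts in defence against intracellular pathogens, was the relative whose ranges were apart in both ventricles. It was at 2.54, 2.02 and 2.20 TPM in LV of WT-PLN and at 2.56, 2.62 and 3.72 TPM in LV of R14del-PLN. In RV it was at 1.85, 1.501 and 1.99 TPM in WT-PLN and at 2.23, 3.77 and 2.36 TPM in R14del-PLN. In LV the highest WT-PLN sample and the lowest R14del-PLN sample were nearly level, and in each ventricle a single R14del-PLN sample stood well above the other two. The difference was 0.28 in LV (SE 0.17, adjusted p = 0.650) and 0.43 in RV (SE 0.17, adjusted p = 0.657), neither of which passed the test.

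Gbp5, which promotes assembly of the NLRP3 inflammasome, was at 1.41, 1.37 and 1.56 TPM in RV of WT-PLN and at 2.18, 2.76 and 1.91 TPM in RV of R14del-PLN. The RV ranges did not overlap. Its mean in RV of R14del-PLN was 1.58 times that in WT-PLN, a difference of 0.42 (SE 0.15, adjusted p = 0.564). In LV it was at 1.79, 1.90 and 1.93 TPM in WT-PLN and at 1.74, 2.36 and 3.19 TPM in R14del-PLN, and these ranges overlapped (difference 0.24, SE 0.15, adjusted p = 0.690). The larger spread was that of the R14del-PLN samples in both ventricles.

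Gbp9 was at 2.03, 1.88 and 2.68 TPM in RV of WT-PLN and at 2.71, 4.30 and 2.94 TPM in RV of R14del-PLN. Its ranges were also apart, by a small margin, with a difference of 0.42 (SE 0.17, adjusted p = 0.656). In LV its ranges overlapped, at 2.71, 3.30 and 2.66 TPM in WT-PLN and 2.84, 3.62 and 4.19 TPM in R14del-PLN. Gbp5, Gbp7 and Gbp9 were thus 3 of 7 relatives with higher, non-overlapping ranges in RV, where 5.19% of all genes were; in LV it was Gbp7 alone, where 2.48% of all genes were. With 3 samples a group, an exact permutation test cannot go below p = 0.1.

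Gbp2, the neighbour most like Gbp2b and a major GBP of vacuole membranes, showed no such separation. It was at 4.73, 5.74 and 4.61 TPM in LV of WT-PLN and at 4.14, 4.45 and 6.12 TPM in LV of R14del-PLN. In RV it was at 4.44, 3.93 and 4.51 TPM in WT-PLN and at 4.69, 5.46 and 3.77 TPM in R14del-PLN. The groups overlapped in both ventricles. The difference was -0.04 in LV (95% confidence interval -0.37 to 0.30) and 0.08 in RV (-0.25 to 0.42), and the LV value turned positive, to 0.065 and 0.057, under quantile and upper quartile scaling.

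Gbp3 overlapped between genotypes in both ventricles, at 2.77, 2.81 and 2.95 TPM in LV of WT-PLN and 2.19, 2.44 and 3.53 TPM in LV of R14del-PLN. In RV it was at 1.81, 1.77 and 2.45 TPM in WT-PLN and at 2.27, 3.597 and 2.03 TPM in R14del-PLN. Gbp4 overlapped as well, at 2.30, 1.54 and 1.46 against 1.40, 1.33 and 3.10 TPM in LV, and at 1.49, 1.13 and 0.975 against 1.88, 2.07 and 1.45 TPM in RV. For Gbp4 in LV a single R14del-PLN sample was above all WT-PLN samples, and without it the difference went from 0.05 to -0.22. The adjusted p of both genes was at least 0.948 in either ventricle.

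Gbp6 was the relative with the largest difference in LV, in the opposite direction to Gbp2b. It was at 10.4, 15.6 and 21.1 TPM in LV of WT-PLN and at 9.31, 6.09 and 10.5 TPM in LV of R14del-PLN. The ranges overlapped slightly, the mean in R14del-PLN was 0.551 times that in WT-PLN, and the difference of -0.77 (SE 0.33) gave an adjusted p of 0.469. In RV it was at 3.51, 9.94 and 6.21 TPM in WT-PLN and at 4.05, 8.54 and 5.39 TPM in R14del-PLN, so the groups covered nearly the same range (difference -0.07, adjusted p = 1). Its near-copy Gbp10 was at 0.455, 0.915 and 1.055 TPM in LV of WT-PLN and at 0.143, 0.197 and 0.228 TPM in LV of R14del-PLN, which did not overlap; of the genes tested, 8.47% were lower in LV of R14del-PLN without overlap. In RV, Gbp10 was at 0.301, 0.573 and 0.153 TPM in WT-PLN and at 0.0767, 0.211 and 0.147 TPM in R14del-PLN, and the ranges overlapped. In a fit of all genes above 0 the LV difference of Gbp10 was -0.59 (SE 0.14, adjusted p = 0.187 by limma). How reads were divided between Gbp6, Gbp10 and Gm43302 was not tested.

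**Figure D3:**
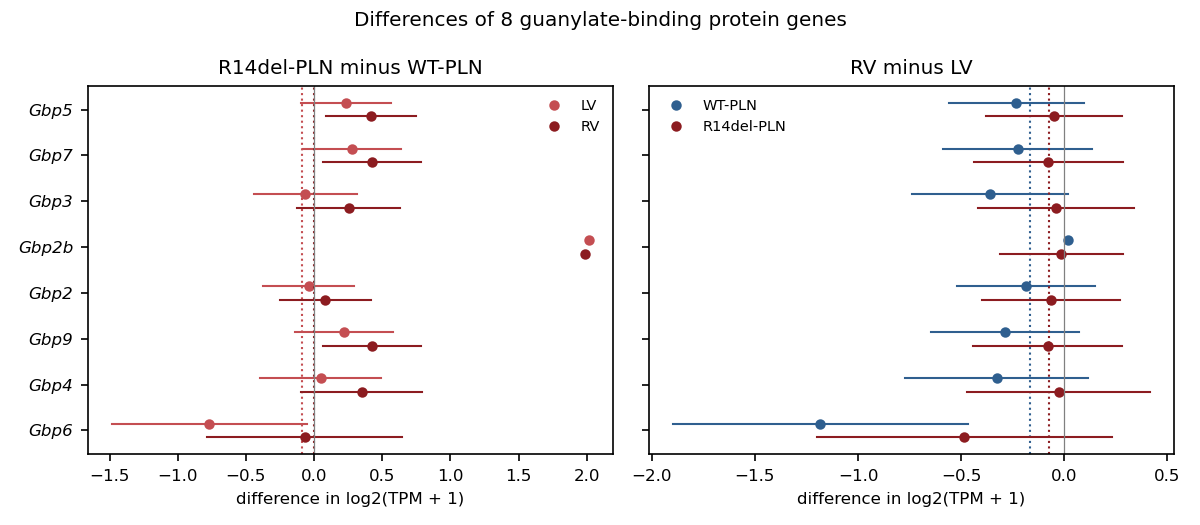
Differences in log2(TPM + 1) of the 8 members, with R14del-PLN minus WT-PLN at left and RV minus LV at right; points are differences of group means, lines are 95% confidence intervals from limma, none drawn for Gbp2b between genotypes or in WT-PLN, and dotted lines mark the medians of all genes. The line of Gbp2b in R14del-PLN is no test, as these values chose the gene. It is likely too narrow, as its spread is shared with WT-PLN samples near 0. At left, Gbp2b lies at 2.02 and 1.99, and the relatives lie between -0.77 and 0.43. At right, the lowest value is that of Gbp6 in WT-PLN, at -1.18.

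The second comparison was between ventricles, which the choice of Gbp2b did not use. In R14del-PLN the RV minus LV difference of Gbp2b was -0.015 (95% confidence interval -0.31 to 0.28, adjusted p = 1.00 by limma), and its ranges overlapped. That fit shares its estimate of spread over all 4 groups, and Gbp2b hardly varied in WT-PLN, where it was near 0. The interval is therefore likely too narrow, and the result does not show equal levels. None of the 8 members was called in R14del-PLN, where 0% of genes were, and 6.57% of all genes but none of the members had an unadjusted p under 0.05. All 8 differences were below 0, as were 70.33% of all genes, with a median of -0.06 beside -0.08 for all genes. However, 7 of the 8 were above 0 when mitochondrially encoded genes were left out before scaling. The directions within R14del-PLN therefore depended on the scaling.

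In WT-PLN all 7 RV minus LV differences of the relatives were below 0, as were 85.9% of all genes. Gbp2b was at or near 0 TPM in both ventricles and was not compared. None of the 7 relatives was called, where 0% of genes were, and 14.5% of all genes and 1 of the 7 relatives (Gbp6) had an unadjusted p under 0.05. The ranges of 5 relatives (Gbp2, Gbp3, Gbp5, Gbp6 and Gbp7) were lower in RV without overlap, against 25.2% of all genes. The median difference of the 7 relatives was -0.29, where that of all genes was -0.17. Gbp6 differed most, by -1.18 (SE 0.33, adjusted p = 0.224), with a mean in RV 0.418 times that in LV. With samples of the same number blocked, the adjusted p of Gbp6 was 0.0723.

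Several other measures moved with the ventricle in WT-PLN. The mitochondrially encoded share was 44.0% to 47.3% in LV and 48.7% to 52.7% in RV, and with those genes left out the median of the 8 members, Gbp2b included, was -0.20 beside -0.06 for all genes. All 7 endothelial markers were below 0 (median -0.43), with sums of 147 to 189 TPM in LV and 111 to 127 TPM in RV, and none of the 7 was at 0 in a whole group. All 7 tested macrophage markers of 8 were below 0 as well (median -0.30), with sums of 90.5 to 134 TPM in LV and 79.1 to 94.9 TPM in RV. Lower values were not particular to these lists, as 85.9% of all genes were below 0. The 5 smooth muscle and pericyte, 5 red cell and 5 atrial markers were all below 0 (medians -0.51, -0.40 and -0.83). So were 4 of 5 fibroblast and 3 of 6 cardiomyocyte markers. The part of any of these cell types in the levels of the relatives was not tested.

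The interaction, which asks whether the genotype difference itself differed between ventricles, was called for 0 of the 7 relatives and 0% of genes by limma, and 1.01% of all genes but none of the relatives had an unadjusted p under 0.05. For Gbp2b, whose genotype differences chose it, the value of -0.03 is a description with no test. For the 7 relatives it lay between 0.12 and 0.70, with a median of 0.21 beside 0.08 for all genes, and each adjusted p was 1.00. The interval for Gbp6 was widest, from -0.31 to 1.71.

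Neighbouring genes were examined for differences that extend beyond Gbp2b. Within 500 kb of the members, 5 tested genes that are no members lie on chromosome 3 and 4 on chromosome 5, and none was called in any of the 4 contrasts. On chromosome 3 their genotype differences were -0.04 to 0.38 in LV and 0.00033 to 0.38 in RV. The value of 0.38 belonged in both ventricles to Gm43802, a processed pseudogene that lies within Gbp7 on the same strand. Gbp2 and Gbp3, on either side of Gbp2b, were at -0.04 and -0.06 in LV and at 0.08 and 0.25 in RV.

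**Figure D4:**
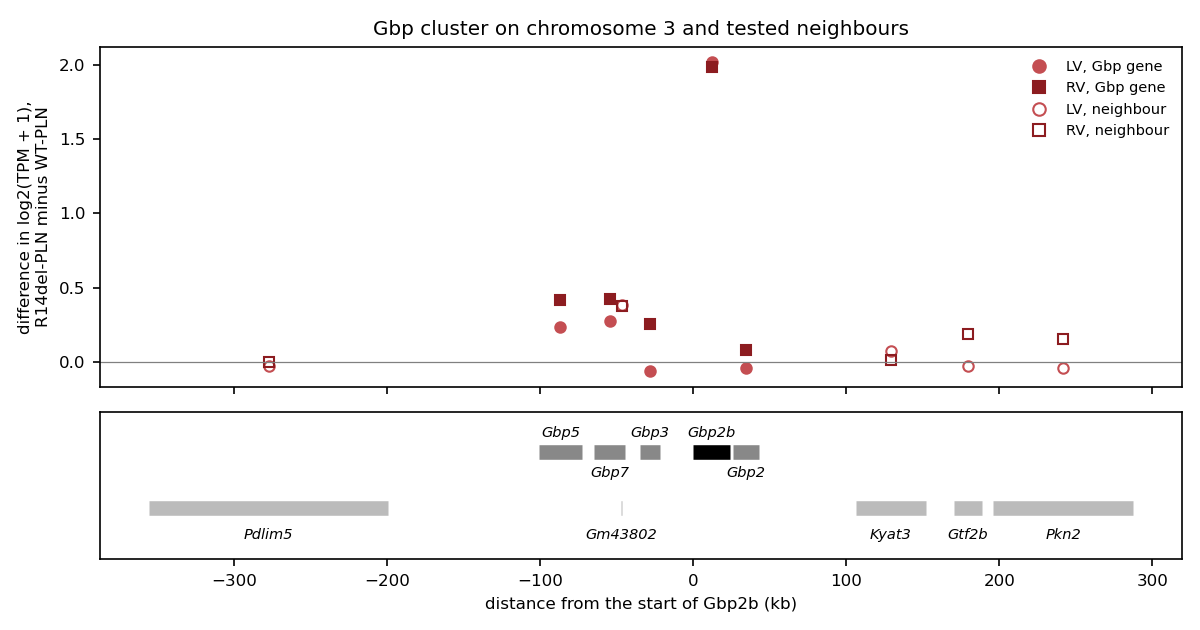
Differences in log2(TPM + 1), R14del-PLN minus WT-PLN, of Gbp genes (filled) and tested neighbours (open) by distance of the gene's centre from the start of Gbp2b in kb; bars below show the extent of each gene. Gbp2b stands at 2.02 in LV and 1.99 in RV, and every other gene drawn lies between -0.06 and 0.43.

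Genes whose pattern was most like that of Gbp2b were named by Pearson's r of log2(TPM + 1) over the 12 samples, a description that reflects mainly the step between genotypes. They were the processed pseudogenes Gm5900 (r = 0.993, chromosome 7), Rpl34-ps1 (0.989, chromosome 6) and Gm9855 (0.984, chromosome 10), and the genes Pts (0.962, chromosome 9) and Alpk1 (0.960, chromosome 3). Gm5900 was at 0 in all 6 WT-PLN samples and at 5.27 to 10.6 TPM in R14del-PLN. Pts, an enzyme of tetrahydrobiopterin synthesis, was at 10.3 to 14.2 TPM in WT-PLN and 20.1 to 29.6 TPM in R14del-PLN, and Alpk1, a kinase that senses a bacterial sugar, at 0.424 to 0.756 and 1.26 to 2.09 TPM. The ranges of each of the 3 were apart between genotypes, which follows largely from their choice by likeness to Gbp2b and supports nothing further.

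Taking deviations from the 4 group means instead, which removes that step, the 5 genes closest to Gbp2b were Rps23 (r = 0.984), Rpl27a, Ndufa1, Fbxo31 and Zcchc17 (r = 0.976). Of the relatives, Gbp5 had r = 0.894 and rank 231 among 12526 genes, Gbp2 0.874 and rank 356, Gbp3 0.863, Gbp7 0.832, Gbp4 0.820, Gbp9 0.666 and Gbp6 0.338. All points share their library, and in WT-PLN Gbp2b hardly varied, so these values rest mainly on the 6 R14del-PLN samples. For the summed relatives the 5 closest genes were Glul (r = 0.987), D17Wsu92e, Aldoa, Atxn1l and Lman2l (r = 0.977). None of these 10 is a GBP.

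Genes of the interferon pathway were examined in lists chosen with earlier results of these data known. None of the genes tested was called in any list in any of the 4 contrasts. Among ligands, Ifnb1, Ifnl2 and Ifnl3 were listed at 0 in all samples and Ifng was at most 0.0262 TPM. The receptor genes were present, at means of 64.8 TPM for Ifngr2, 19.7 for Ifngr1, 14.4 for Ifnar2 and 5.26 for Ifnar1. Their genotype differences lay between -0.37 (Ifngr1, adjusted p = 0.398) and 0.08 (Ifngr2) in LV and between -0.23 and 0.13 in RV.

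Downstream of the receptors, 14 of 15 signalling genes were tested, with medians of -0.19 in LV and 0.01 in RV. Jak1, a receptor-bound kinase, was at a mean of 33.8 TPM and differed by -0.19 in LV (SE 0.22) and -0.09 in RV (SE 0.22). Stat3, a transcription factor, was at a mean of 25.1 TPM and differed by -0.21 in LV (SE 0.19) and -0.11 in RV (SE 0.19). Irf1, a transcription factor that drives Gbp genes, differed by -0.34 in LV (adjusted p = 0.574) and -0.01 in RV. The suppressor Socs3 had the lowest value in the list in both ventricles, -0.61 in LV and -0.33 in RV, neither past the test.

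Other interferon-inducible GTPases, of which 9 of 10 were tested, had medians of 0.06 in LV and 0.22 in RV, against -0.09 and -0.0034 for all genes. Iigp1, a GTPase that disrupts pathogen vacuoles, had the highest mean in the list (11.6 TPM) and differed by 0.44 in LV (SE 0.16, adjusted p = 0.345) and 0.52 in RV (SE 0.16, adjusted p = 0.352). Irgm1 and Igtp, regulators of the same system, were at means of 6.15 and 4.13 TPM, with differences of 0.06 and 0.15 in LV and 0.22 and 0.21 in RV. In RV 8 of the 9 were above 0, where 50.93% of all genes were below 0.

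Other targets of interferon-gamma, of which 16 of 19 were tested, had medians of -0.03 in LV and 0.06 in RV. B2m, the light chain of MHC class I, was the most abundant (123 TPM) and differed by -0.33 in LV and -0.11 in RV. The MHC class II genes lay lowest: Cd74, the invariant chain, differed by -0.90 in LV (SE 0.23, adjusted p = 0.136) and -0.51 in RV, and H2-Aa by -0.77 and -0.40. These values were opposite in sign to that of Gbp2b, whereas 6 of the 16 tested targets in LV and 10 in RV were above 0. Beside these counts, 71.65% of all genes in LV and 50.93% in RV were below 0. None of the 16 passed the test. Of the genes for targeting of GBPs to membranes and for inflammasomes, 15 of 17 were tested (medians -0.06 in LV and -0.0027 in RV); the most abundant, Gabarap, Map1lc3b and Gabarapl2, which encode ATG8 proteins of autophagosomes, differed by -0.20, -0.19 and -0.17 in LV. The 3 atlastin genes, GTPases of the same superfamily that fuse endoplasmic reticulum, had medians of -0.19 and -0.02.

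**Figure D5:**
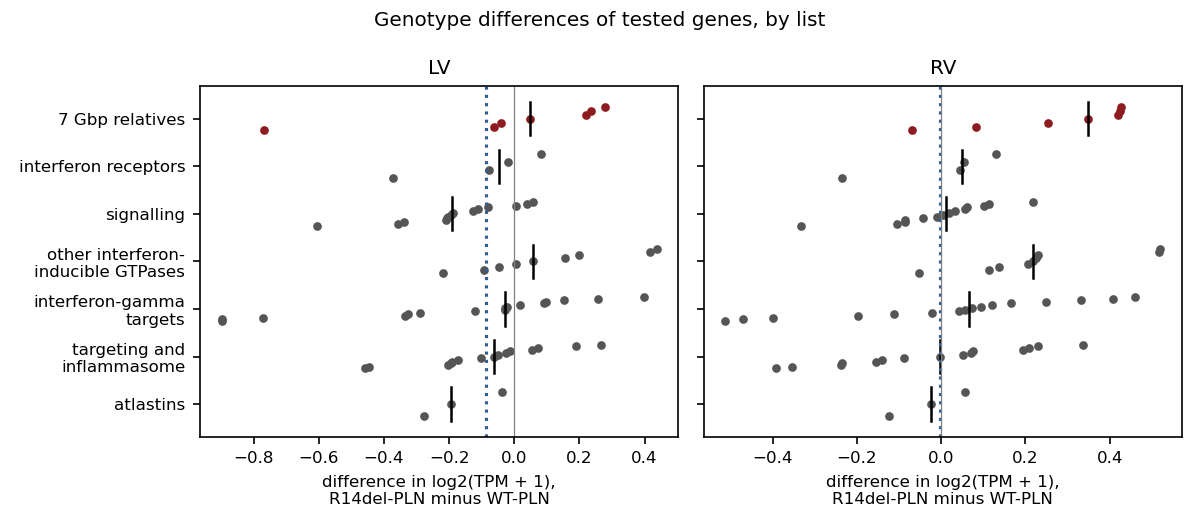
Differences in log2(TPM + 1), R14del-PLN minus WT-PLN, of the 7 relatives and the tested genes of 6 lists in LV and RV; each point is a gene, black bars are list medians and the dotted line is the median of all genes. The relatives have medians of 0.05 in LV and 0.35 in RV, and no gene drawn passed the test.

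Markers of other cell types were read beside the genotype comparison. No marker gene was called in any of the lists. Of all genes, 71.65% were below 0 in LV and 50.93% in RV. In RV, where the relatives had a median of 0.35, the endothelial markers had a median of 0.18 (4 of 7 above 0, sums of 111 to 127 TPM in WT-PLN and 119 to 149 TPM in R14del-PLN) and the macrophage markers -0.03 (2 of 7 above 0, sums of 79.1 to 94.9 and 73.6 to 118 TPM). In LV, where the difference of Gbp6 was -0.77 and did not pass the test, the 5 fibroblast markers were all below 0 (median -0.37, sums of 290 to 522 and 239 to 370 TPM), as were the 5 atrial markers (median -2.30, sums of 211 to 1319 and 146 to 319 TPM) and the 2 tested neutrophil markers of 4 (median -1.11, sums of 0.601 to 14.5 and 0.549 to 1.22 TPM). The 5 red cell markers were below 0 in both ventricles, with medians of -0.62 in LV and -0.59 in RV, and the 5 smooth muscle and pericyte markers had medians of -0.34 and 0.15. In LV, 3 of 7 endothelial markers (median 0.06), 6 of 7 tested macrophage markers (-0.09) and 4 of 6 cardiomyocyte markers (-0.02) were below 0. The part of any of these cell types in the genotype differences of the relatives was not tested. The summed markers of T and natural killer cells, which are known to make interferon-gamma, were at 0.732 to 1.59 TPM over all samples, and the B cell markers at 0.179 to 0.942 TPM.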

How the data were processed

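Ventricular RNA from 12 samples was sequenced from stranded polyA libraries. The authors mapped reads to GRCm38 with CLC Genomics Workbench 20.0.2 and deposited TPM values per gene and sample, with replicates kept separate; the program behind the TPM values, its annotation and its use of strand are not given in the sources used here. The values sum to the same total in every sample, keep no depth and hold no counts, so no count test was run.

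Groups came from the sample titles. limma 3.58.1 (R 4.3.3; group means, eBayes with trend) was fitted to log2(TPM + 1) of the 12526 genes that averaged 0.5 TPM or more, with Benjamini-Hochberg adjustment over all of them, and calls needed an adjusted p up to 0.05 and at least a 1.5-fold change. The code was tested on simulated data. The members and lists were chosen with earlier results of these data known. Named genes were the members, other Gbp genes, the receptors, the 3 most abundant or called genes of each list, called neighbours within 500 kb, and the 5 most alike by Pearson's r; Socs3, Irf1 and Gm43802 were named after their values were seen, and marker lists are given as sums and medians. A gene of the signalling list that the rule names is not reported here. Coding identity was taken from alignments with Biopython 1.88, and shared windows from annotated transcripts. Protein sequences were not analysed here.

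LV and RV samples of the same number deviated together in WT-PLN (r = 0.657, 0.321 and 0.457 for numbers 1, 2 and 3), less so in R14del-PLN (0.389, 0.230 and 0.054), and little between genotypes (at most 0.219). The numbers were used as a block only as an alternative. The other alternatives were pseudocounts, filters, scalings, the fit's samples and trend, the fold, and leaving out samples.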

Additional observations from a re-analysis of the deposited data

How the results depend on the processing

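None of the 7 relatives was called between genotypes, between ventricles or in the interaction under any of the 26 alternatives (23 for the interaction). The lowest adjusted p of any relative between genotypes was 0.0605 by limma, for Gbp5 in RV. With a mean of at least 5 TPM required, Gbp6 was the only member left to test. The replicate block left the 0 calls at 0, and changed no call of a relative. Its adjusted p for Gbp6 between ventricles of WT-PLN was 0.0723 by limma. The described Gbp2b differences in LV and RV were 2.82 and 2.77 with a pseudocount of 0.5, 4.93 and 4.77 with 0.1, and 2.74 and 2.83 without mitochondrially encoded genes, and ranged from 1.88 to 2.09 and from 1.88 to 2.08 with single samples left out; the smaller pseudocounts enlarge them by construction.

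Differences near 0 changed sign, and the cause was not tested. Between genotypes in LV, Gbp3 and Gbp2 went to 0.025 and 0.065 with quantile normalization and to 0.020 and 0.057 with upper quartile scaling. For RV minus LV in R14del-PLN, Gbp3, Gbp5, Gbp2, Gbp4 and Gbp2b went to 0.019, 0.00694, 0.014, 0.037 and 0.046 with quantile normalization and to 0.031, 0.024, 0.020, 0.046 and 0.061 with upper quartile scaling; without mitochondrially encoded genes they went to 0.089, 0.083, 0.081, 0.11 and 0.13, and Gbp7 and Gbp9 to 0.049 and 0.051. The Gbp2b interaction went to 0.040, 0.043 and 0.091 under these 3 scalings. With single samples left out, the LV genotype difference ranged from -0.21 to 0.039 for Gbp3, -0.18 to 0.053 for Gbp2 and -0.22 to 0.19 for Gbp4, and the RV difference from -0.40 to 0.24 for Gbp6 and -0.021 to 0.20 for Gbp2. The RV minus LV difference in R14del-PLN then ranged from -0.22 to 0.11 for Gbp3, -0.26 to 0.054 for Gbp7, -0.20 to 0.11 for Gbp5, -0.24 to 0.019 for Gbp9, -0.17 to 0.080 for Gbp2, -0.17 to 0.24 for Gbp4 and -0.12 to 0.12 for Gbp2b. The interaction ranged from -0.030 to 0.28 for Gbp7 and -0.14 to 0.10 for Gbp2b.

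TPM keep no depth, so the error from counting reads cannot be separated from the spread between samples, and a value of 0 does not show that a transcript was absent. Gbp4, Gbp6 and Gbp9 share sequence with other Gbp genes, and how the authors' program divided such reads is not given in the sources used here.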
